A study of Mus musculus with 20 samples.

Results

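The genes described here let a liver cell sense its sterol content and set how much cholesterol it moves in and out. They are 8 of the 46078 genes in the count table, chosen by function: Srebf2, Scap, Insig1 and Insig2 of the sensor, the sterol carrier gene Stard4, Mylip, which acts on uptake, and the transporters Abca1 and Abcg5. RNA-seq libraries came from 20 livers of male mice at least 9 weeks old on a mixed 129 and C57BL/6 background, in 6 groups of genotype and diet. Cse (gene symbol Cth) encodes cystathionine γ-lyase, the last enzyme in making cysteine from methionine, and Cse-/- mice lack it in the whole body, so cysteine must come from their food. Mice with the control genotype (called WT in the sample labels and heterozygous in the study's list of mice, and written Cse+/- here) received the control diet (n = 2), a diet without cysteine (no-Cys, n = 4) or a diet without tryptophan (no-Trp, n = 3). Cse-/- mice received no-Cys (n = 4), no-Trp (n = 3) or no-Trp with buthionine sulfoximine (BSO), an inhibitor of glutathione synthesis (no-Trp + BSO, n = 4). All 20 mice were on restricted calories, and livers were taken 2 days after the change of diet. No Cse-/- liver on the control diet was analysed here, so the effect of genotype was read within the no-Cys and no-Trp diets.

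Srebf2 encodes SREBP2, a transcription factor made as a precursor in the membrane of the endoplasmic reticulum. When membrane sterols are low, the escort protein SCAP carries the precursor to the Golgi apparatus, where proteases release its active part, which switches on the genes of cholesterol synthesis and uptake, Insig1 and Srebf2 included. When sterols are high, INSIG1 or INSIG2 holds SCAP back, and oxysterols activate the receptor LXR, whose targets include Abca1, Abcg5 and Mylip. RNA levels of these genes therefore report on the pathway, but the cleavage of SREBP2 and the sterol content of the livers were not measured in these files.

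Promoter sequence is shown for Srebf2 and Insig1, which fell in the main comparison, and for the LXR target Abca1, which did not pass the test in any comparison of all 20 livers. Each run covers 250 bases before and 50 after the start in RefSeq (GRCm38.p6), read along the gene's strand. Srebf2 lies at chr15:82147019-82147318 on the plus strand, Insig1 at chr5:28071162-28071461 on the plus strand and Abca1 at chr4:53159846-53160145 on the minus strand. Capitals mark ATCACCCCA and ATTGG in Srebf2 and ATTGG in Insig1. ATTGG is the motif CCAAT on the other strand. In Abca1 they mark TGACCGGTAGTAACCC, which read on the other strand is the half-site NGGTNA, 4 free bases and the half-site NGGTCA.
Srebf2: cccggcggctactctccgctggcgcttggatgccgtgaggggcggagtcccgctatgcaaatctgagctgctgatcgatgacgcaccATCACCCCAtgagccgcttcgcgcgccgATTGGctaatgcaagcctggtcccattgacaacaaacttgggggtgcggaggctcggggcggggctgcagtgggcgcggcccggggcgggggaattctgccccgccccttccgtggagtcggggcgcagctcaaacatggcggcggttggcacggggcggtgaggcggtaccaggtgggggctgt
Insig1: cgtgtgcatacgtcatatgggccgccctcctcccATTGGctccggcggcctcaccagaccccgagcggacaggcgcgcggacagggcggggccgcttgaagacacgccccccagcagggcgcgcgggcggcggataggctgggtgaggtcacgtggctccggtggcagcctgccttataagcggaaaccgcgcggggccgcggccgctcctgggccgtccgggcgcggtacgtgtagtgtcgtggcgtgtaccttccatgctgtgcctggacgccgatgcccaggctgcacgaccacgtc
Abca1: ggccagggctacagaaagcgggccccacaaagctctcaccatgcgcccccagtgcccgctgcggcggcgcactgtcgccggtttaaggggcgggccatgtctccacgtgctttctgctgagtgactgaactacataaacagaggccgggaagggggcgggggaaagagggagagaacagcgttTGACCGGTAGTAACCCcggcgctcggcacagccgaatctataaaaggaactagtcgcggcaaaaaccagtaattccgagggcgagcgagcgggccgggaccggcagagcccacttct

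A window was found for 7 of the 8 genes; Stard4 had none. On both strands, no member's window held the sterol regulatory element spelled TCACNCCAC, which 1.24% of all 32851 promoter windows held, nor a wider spelling, TCACNCNAC, held by 2.7%. After the windows had been read, the letters ATCACCCCA were searched as well and occurred in Srebf2 alone of the 7, from 163 to 155 bases before the start; 0.28% of all windows held them. CCAAT, the element of the factor NF-Y that acts beside SREBPs, occurred in Srebf2, Insig1, Insig2, Mylip and Abcg5, with 3 matches each in Insig2 and Mylip, and in 37.4% of all windows. The LXR direct repeat of AGGTNA and NGGTCA with 4 bases between them matched no member and 0.0883% of windows. The looser repeat marked above, also chosen after the windows had been read, matched Abca1, from 67 to 52 bases before the start, and 0.207% of windows. These matches describe letters in short windows and were not tested as binding sites.

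Another link between the genes lies within Srebf2, which holds the hairpin of miR-33 without sharing an exon with it. The 5p arm, encoded at chr15:82198127-82198147 on the plus strand, is shown with its seed, bases 2 to 8, in capitals, followed by the stretches of the Abca1 transcript (GENCODE, GRCm38) that hold the complement of that seed, in capitals too.
mmu-miR-33-5p: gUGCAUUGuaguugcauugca
Abca1, match 135 bases after the stop codon: tgtactgacactattCAATGCAa
Abca1, match 140 bases after the stop codon: tgacactattcaatgCAATGCAc
Abca1, match 150 bases after the stop codon: caatgcaatgcacttCAATGCAa
Abca1 held 3 such matches after its stop codon and the other 7 genes held 0. Of 21020 genes with an annotated end, 7.12% had 1 or more and 0.0714% had 3 or more. The miRNA itself was not measured in these poly(A)-selected libraries.

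Libraries held 11785740 to 57986121 read counts on genes, and all 8 genes had at least 154 counts (Mylip) in every liver, so values of Mylip carry the most counting error. Cth was at 88.4 to 332 CPM (counts relative to TMM-scaled library size) in Cse+/- livers and at 6.37 to 14.4 CPM in Cse-/- livers, so the genotype labels held in all 20 livers. Hepatocyte markers were high in every liver. The 5 adipose markers summed to 3.97 to 44.1 CPM, the highest value being that of 1 Cse+/- no-Trp liver in a group with a median of 10.9 CPM, and Lep among them was at 0 in every liver. Over the 14759 genes tested, 6 of the 20 livers were nearer to the mean of another group than to the rest of their own, by root mean square distance on the log2 scale. They were the no-Cys liver with header name av08, all 3 Cse-/- no-Trp livers (av14, av15 and av16) and both control-diet livers. Cse-/- no-Trp livers av14 and av16 and no-Cys liver av08 were nearest to the no-Trp + BSO group, and av15 to the no-Cys group (0.522, against 0.529 from its own). Among Cse-/- livers, av08 and av15 lay farthest from the rest of their own groups (0.505 and 0.529, against 0.304 to 0.471 for the other 9). The range in Cse+/- livers was 0.363 to 0.521, the highest value being that of av01, which was kept although it exceeds that of av08. Leaving out av08 and av15 together was chosen after the data were seen, and the calls of members that change without them are given below. Removing livers far from their own groups tends to lower the spread, so the adjusted p-values without them add no independent evidence.

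Per kilobase of exon, the mean level over the 20 livers was highest for Abcg5 (84.8 CPM per kb), followed by Insig1 (48.6), Insig2 (28.6), Stard4 (16.8), Scap (15.3), Abca1 (13.1), Srebf2 (5.54) and Mylip (4.68). The sensor's regulator Insig1 was thus measured at a higher level per length than the factor Srebf2 itself. Across livers the highest CPM was 6.06 times the lowest for Stard4 and 4.94 times for Insig1, against 1.62 times for Scap. Stard4 and Insig1 were therefore the members that varied most between mice, and Scap the member that varied least.

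**Figure D1:**
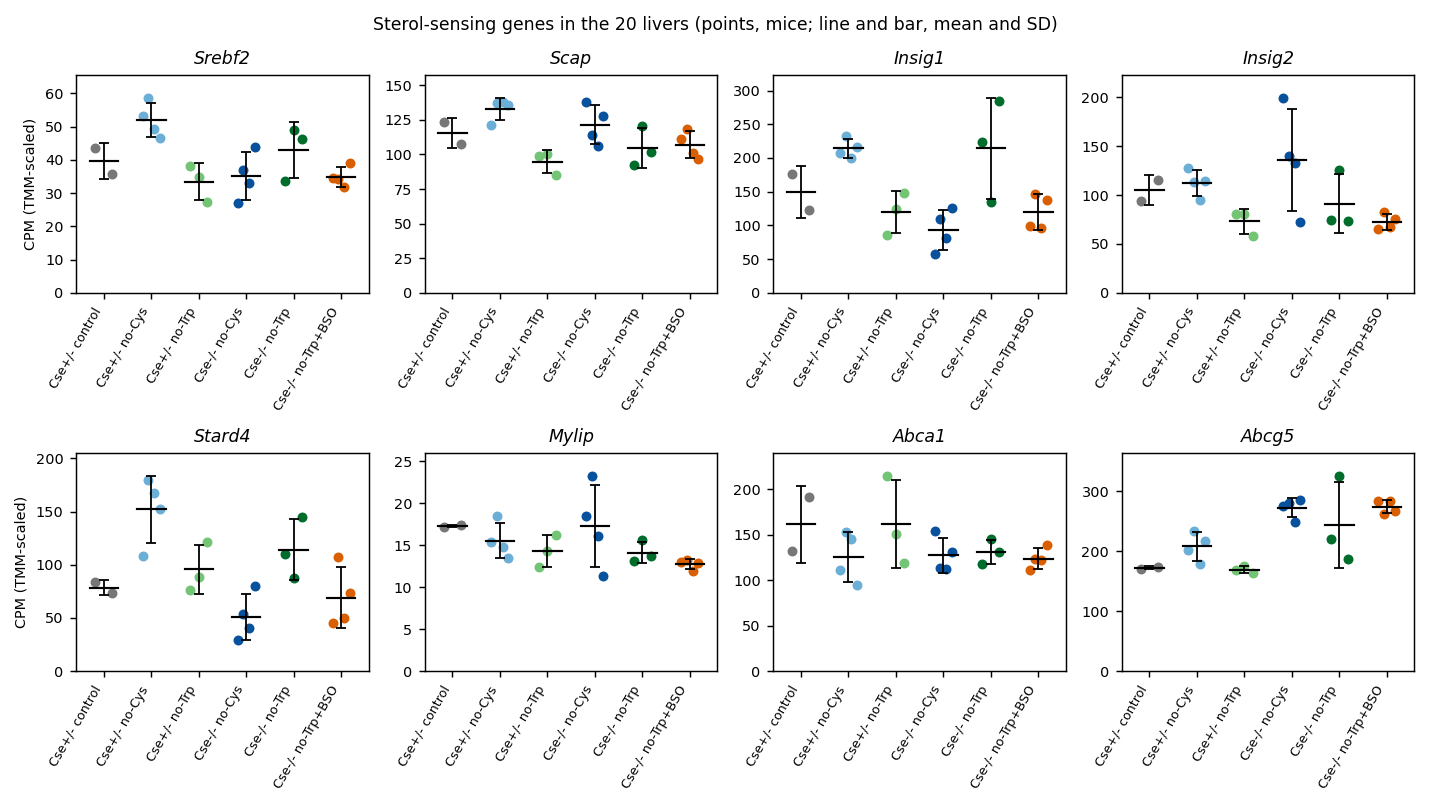
CPM of each of the 8 genes in each liver (points), by group, with the group mean (line) and SD (bar), on linear axes that start at 0. Insig1 and Stard4 were lower in all 4 Cse-/- no-Cys livers than in any Cse+/- no-Cys liver, whereas Abca1 overlapped between these groups.

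The comparison of Cse-/- with Cse+/- mice on no-Cys asks what a lack of cysteine changes when it cannot be made from methionine. It also holds any difference of genotype present on a diet with cysteine, which is described below for no-Trp. Stard4, Insig1 and Srebf2 fell in Cse-/- livers to 0.335, 0.435 and 0.675 of the Cse+/- level, and Abcg5 rose 1.31-fold. Scap, Insig2, Mylip and Abca1 did not pass the test. So 3 of 8 members were called lower, where 12.2% of all genes tested were, and 1 was called higher, where 11.6% were. The median log2 fold change of the members was -0.06, against -0.01 over all genes tested. The Cse+/- no-Cys group, from which these falls were read, had the highest mean of Srebf2, Insig1 and Stard4 of the 6 groups. The 2 control-diet livers were at 35.7 and 43.5 CPM for Srebf2, 122 and 177 for Insig1 and 73.4 and 83.7 for Stard4. Cse-/- no-Cys livers overlapped them in all 3 genes, for Insig1 and Stard4 through av08 alone. No test compared these 2 groups.

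Srebf2, the sterol-sensing factor (chr15:82147181-82205379, plus strand, GRCm38), was at 53.2, 58.6, 49.3 and 46.6 CPM in the Cse+/- no-Cys livers and at 26.9, 36.8, 33.0 and 43.8 CPM in the Cse-/- no-Cys livers. The highest Cse-/- value, that of av08, lay below the lowest Cse+/- value. The log2 fold change was -0.57 ± 0.15 (SE; adjusted p = 0.00793) and -0.69 (adjusted p = 0.00142) without av08 and av15.

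Scap, the escort of SREBP2 (chr9:110333288-110384950, plus strand), was at 121 to 138 CPM in Cse+/- and 106 to 138 CPM in Cse-/- livers on no-Cys, and the ranges overlapped. Its log2 fold change of -0.13 ± 0.10 had an interval of -0.33 to 0.07 (95%, from the SE; adjusted p = 0.387). Of its exon bases, 13.2% are shared with 5830462I19Rik on the opposite strand, and no source used here says whether counting took strand into account.

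Insig1, the retention protein whose own gene is a target of SREBPs (chr5:28071363-28078662, plus strand), was at 208, 232, 201 and 217 CPM in Cse+/- no-Cys livers. In Cse-/- no-Cys livers it was at 57.5, 110, 80.6 and 125 CPM, all below the Cse+/- livers. The log2 fold change was -1.20 ± 0.24 (adjusted p = 0.00131) and -1.38 (adjusted p = 0.000214) without av08 and av15.

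Insig2, which also retains SCAP and whose main liver transcript is known to be lowered by insulin, behaved differently (chr1:121304353-121332589, minus strand). It was at 127, 114, 95.4 and 114 CPM in Cse+/- no-Cys livers and at 199, 140, 133 and 72.2 CPM in Cse-/- no-Cys livers. 3 Cse-/- livers lay above all Cse+/- livers and av08 lay below them. With all livers the log2 fold change was 0.28 ± 0.22 (adjusted p = 0.394), and without av08 and av15 it was 0.48 (adjusted p = 0.0224). Leaving out av08 alone gave an adjusted p of 0.0626, so the call rests on which livers are used.

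Stard4, on chromosome 18, encodes a soluble carrier that moves sterol between membranes and is a known target of SREBP2. Its levels were 108, 180, 167 and 153 CPM in Cse+/- no-Cys livers and 29.6, 54.0, 40.3 and 79.9 CPM in Cse-/- no-Cys livers, without overlap. The log2 fold change of -1.58 ± 0.29 (adjusted p = 0.000601) was the largest of any member in a comparison of 2 groups, and it was -1.88 without av08 and av15 (adjusted p = 9.89e-05).

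Among the genes of uptake and export, Abcg5 rose. ABCG5 forms, with ABCG8, the transporter that moves sterols into bile. Abcg5 (chr17:84658234-84683011, minus strand) was at 202, 234, 178 and 217 CPM in Cse+/- no-Cys livers and at 276, 280, 249 and 286 CPM in Cse-/- no-Cys livers, without overlap. The log2 fold change was 0.39 ± 0.13 (adjusted p = 0.0287). The call was lost when av01, av03, av05, av06 or av08 was left out alone, with adjusted p up to 0.0876, and it held without av08 and av15 together (0.37, adjusted p = 0.00876). Its exons share 3.02% of their bases with Abcg8 on the opposite strand.

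Mylip, a ubiquitin ligase that marks lipoprotein receptors for degradation (chr13:45389742-45412022, plus strand), was at 13.5 to 18.5 CPM in Cse+/- and 11.4 to 23.2 CPM in Cse-/- livers on no-Cys. Abca1, which loads cholesterol onto apolipoprotein A1 to form HDL (chr4:53030787-53159895, minus strand), was at 95.2 to 153 CPM and 113 to 154 CPM. Both overlapped between genotypes, with log2 fold changes of 0.15 ± 0.16 (interval -0.15 to 0.46) and 0.02 ± 0.17 (interval -0.32 to 0.36). The 3 LXR targets among the members thus had 1 call, that of Abcg5.

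Genes around the sensor were described by fixed lists. Of 20 cholesterol synthesis enzymes, 18 were called lower and 0 higher in Cse-/- no-Cys livers, with a median log2 fold change of -1.31. The largest called falls were in Nsdhl (-2.41 ± 0.29), Idi1 (-2.00 ± 0.41), Fdps (-1.89 ± 0.40) and Msmo1 (-1.75 ± 0.31), which encode enzymes of the isoprenoid and late sterol steps. Nsdhl was at 48.1 to 57.5 CPM in Cse+/- and 5.67 to 15.3 CPM in Cse-/- livers. Lss had the smallest change of the list, at -0.26 ± 0.11 (adjusted p = 0.0969). The fall of Insig1 and Stard4 was therefore within the range of the synthesis enzymes, and that of Srebf2 was smaller than the median of the list.

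The 15 genes that transport, cleave or degrade the sensor's proteins moved less: 5 were called higher (3 without av05 or av06) and 2 lower, with a median of 0.10. Sec24d, a coat protein of the vesicles that leave the endoplasmic reticulum, rose by 0.83 ± 0.15. Rnf145, a sterol-responsive ubiquitin ligase, fell by 0.58, and Pgrmc1, a membrane protein that binds heme, rose by 0.36 ± 0.08.

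Of the 14 genes in the LXR list, 1 was called higher and 5 lower, with a median of -0.09. Besides LXR receptors and targets, this list held the partner receptor gene Rxra and the bile acid sensing genes Nr1h4 and Nr0b2. Scd1 (-4.37 ± 0.67), the fatty acid desaturase, and Srebf1 (-1.69 ± 0.27), the lipogenic relative of Srebf2, fell most, followed by Cyp7a1 (-1.43 ± 0.51), the rate-limiting enzyme of bile acid synthesis. Abcg8, the partner of Abcg5, rose by 0.69 ± 0.14 (adjusted p = 0.00151). Of 18 genes of uptake, esterification and transport, 4 were called higher and 3 lower, with a median of -0.07. Vldlr, a lipoprotein receptor that is low in liver, rose by 1.94 ± 0.33 from 2.89 to 11.2 CPM, and Gramd1c, a sterol transfer protein, rose by 0.75 ± 0.19. Gramd1a fell by 0.51 and Osbp rose by 0.41 ± 0.14. When single livers were left out, the LXR list's lower calls ranged from 2 (without av03, av05, av06 or av07) to 5 and the uptake list's from 0 (without av04 or av07) to 2, and its higher calls from 2 (without av03, av04, av06 or av07) to 4.

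Other features moved with this comparison. The summed hepatocyte markers were at 42134 to 70208 CPM in Cse-/- no-Cys and 86319 to 110422 CPM in Cse+/- no-Cys livers, with 4 of 6 markers called lower and 1 higher. Of 4 red cell markers tested, 4 were lower, of 5 cholangiocyte markers 2 were lower, and of 8 Kupffer cell, 5 stellate and 3 tested lymphocyte markers 1 each was lower. Of 5 liver endothelial markers 1 was higher. Of 12 clock genes tested, 7 were called lower, led by Cry1 (-0.88 ± 0.19) and Hlf (-0.88 ± 0.13). The part of these changes in the members' results was not tested, and in whole liver fewer cells of a type and less RNA per cell cannot be told apart.

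**Figure D2:**
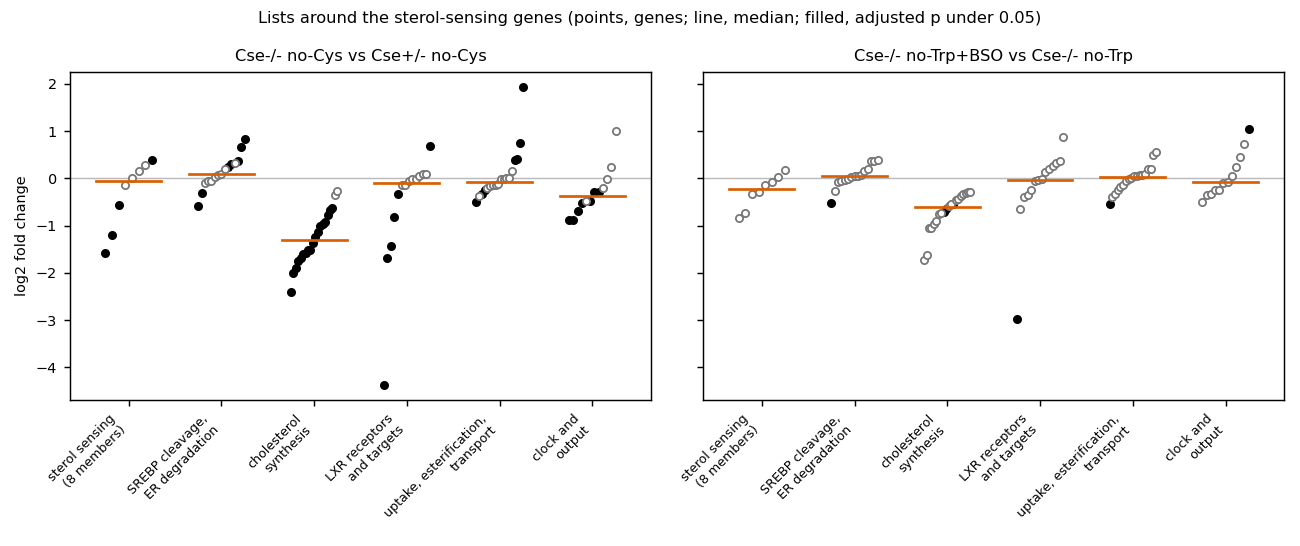
Log2 fold change of each tested gene (points) in the 6 lists, with the list's median (line); filled points had an adjusted p under 0.05. In Cse-/- against Cse+/- livers on no-Cys (left) 18 of 20 synthesis enzymes were called lower, and with BSO added to no-Trp (right) 3 were.

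Against the no-Trp diet in the same genotype, the no-Cys diet shows what is not shared by the lack of another amino acid. Insig1 and Stard4 were lower on no-Cys, to 0.435 and 0.446 of the no-Trp level, and no other member passed the test. So 2 of 8 members were called lower and 0 higher, where 5.35% and 5.05% of all genes were. Over all genes, 746 were called higher and 789 lower, and these counts moved by over 1.5 times without av05, av06, av07, av14 or av16, to as few as 314 and 369 (without av14). Cse-/- no-Cys livers are also the numerator of the comparison above, so the results share those 4 mice.

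In Cse-/- no-Trp livers Insig1 was at 223, 135 and 284 CPM, with av15 the lowest. All 3 lay above the Cse-/- no-Cys livers, whose highest value was 125 CPM. The log2 fold change was -1.20 ± 0.25 (adjusted p = 0.00619), and -1.62 (adjusted p = 0.000494) without av08 and av15. Stard4 was at 110, 87.3 and 145 CPM on no-Trp, above the highest no-Cys value of 79.9 CPM. Its log2 fold change was -1.17 ± 0.30 (adjusted p = 0.0188), and -1.63 (adjusted p = 0.00237) without the 2 livers. The call of Stard4 was lost, with an adjusted p up to 0.0819, when av05, av07, av14 or av16 was left out, and no member was called in a fit of these groups alone.

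Srebf2 was at 33.5, 49.1 and 46.4 CPM in Cse-/- no-Trp livers, with a log2 fold change on no-Cys of -0.29 ± 0.16 (interval -0.60 to 0.01), and of -0.31 without av08 and av15. Insig2 was at 74.4, 126 and 73.5 CPM on no-Trp, av15 being the highest, and differed by 0.58 ± 0.24 (adjusted p = 0.132). Without av08 and av15 Insig2 was higher on no-Cys by 1.09 (adjusted p = 0.000921), as were Mylip by 0.52 (adjusted p = 0.0349) and Abcg5 by 0.39 (adjusted p = 0.0312), which makes 3 members higher in place of 0. Abcg5 in av15 was at 325 CPM, the highest of the 20 livers.

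Of the synthesis enzymes, 11 of 20 were lower on no-Cys (median -0.77), among them Nsdhl (-1.42 ± 0.30), Cyp51 (-1.26 ± 0.31), Msmo1 (-1.06 ± 0.32) and Tm7sf2 (-0.95 ± 0.24). The 11 became 5, 6, 6 and 4 without av05, av07, av14 and av16 in turn, and 13 without av08 and av15 together. The trafficking and degradation list had 2 higher and 1 lower: Sec24d (0.58 ± 0.17) and Pgrmc1 rose (1 call higher without av05, av14 or av15), and Sar1b, the GTPase of those vesicles, fell by 0.68. In the LXR list Srebf1 fell by 1.38 and Abcg8 rose by 0.48 ± 0.15, with 1 called higher and 2 lower. That LXR call higher was lost without av05, av06, av08, av14 or av16, and the lower calls dropped to 1 without av06, av07, av14 or av16 and numbered 4 without av08 and av15 together. Of the uptake and transport list 3 were higher and 0 lower, namely Gramd1c (0.81 ± 0.21), Osbp (0.60 ± 0.15) and Soat2 (0.57 ± 0.14), the esterifying enzyme of hepatocytes, and these dropped to 1 without av06 or av15. Clock genes had 1 higher and 3 lower, with Cry1 at -1.09 ± 0.20 and Nr1d1 at 0.82 ± 0.19, and the call higher was lost without av14. The summed hepatocyte markers were at 42134 to 70208 CPM on no-Cys and 66434 to 72813 CPM on no-Trp, with 3 of 6 called lower. Cholangiocyte markers summed to 16.4 to 28.6 and 27.6 to 46.2 CPM (1 of 5 lower) and red cell markers to 65.2 to 108 and 111 to 168 CPM (2 of 4 tested lower). The part of these lists in the members' results was not tested.

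Adding BSO to the no-Trp diet asks what a block of glutathione synthesis adds. No member was called by edgeR, where 0.488% of all genes were called higher and 0.305% lower, and 2 had an unadjusted p under 0.05. The 72 higher and 45 lower calls over all genes moved by over 1.5 times without av09, av10, av11, av12 or av15, from 24 and 12 (without av09) to 100 and 72 (without av10). Insig1 was at 98.3, 147, 95.9 and 137 CPM with BSO. It overlapped the no-Trp group only through av15 (135 CPM), with a log2 fold change of -0.84 ± 0.25 (adjusted p = 0.124). DESeq2 called Insig1 alone (-0.85, adjusted p = 0.0358), and without av08 and av15 edgeR called it too (-1.10, adjusted p = 0.0415). Stard4 was at 45.6, 108, 49.8 and 73.4 CPM with BSO, a log2 fold change of -0.73 ± 0.30 (adjusted p = 0.278), and of -0.90 without av08 and av15 (adjusted p = 0.221).

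Srebf2 with BSO was at 34.6, 34.1, 31.9 and 38.9 CPM (-0.30 ± 0.15, adjusted p = 0.425), and the difference was -0.20 without av08 and av15. The other members had log2 fold changes between -0.33 (Insig2) and 0.17 (Abcg5). Among synthesis enzymes 3 of 20 were called lower (median -0.61): Hsd17b7 (-0.72 ± 0.14), Acat2 (-0.64 ± 0.12) and Lss (-0.54 ± 0.12). The count was 1 without av09, av11, av15 or av16 and 9 without av10. All 20 had a negative log2 fold change, and the median over all genes tested was -0.0048. In the other lists the calls were single genes: Sar1b (-0.53 ± 0.09), Scd1 (-2.98 ± 0.66), Lipa (-0.54 ± 0.12), which encodes the lysosomal lipase that frees cholesterol, and the clock gene Nr1d1 (1.04 ± 0.20). The LXR list had 0 lower without av09, av11, av12, av15 or av16, the uptake list 0 lower without av09, av11, av12 or av15, and the clock list 0 higher without av09, av14 or av15.

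Compared directly with Cse-/- no-Cys livers, the no-Trp + BSO livers differed in Insig2. It was at 65.1, 82.5, 67.3 and 75.5 CPM with BSO, against 199, 140, 133 and 72.2 CPM on no-Cys, so only av08 fell within the BSO range. Insig2 was lower by 0.91 on the log2 scale, with an SE of 0.22 (log2 fold change -0.91, adjusted p = 0.0345), and 1 of 8 members was called lower and 0 higher, where 1.33% and 1.42% of all genes were. The 210 higher and 196 lower calls over all genes moved by over 1.5 times without any single liver but av10, from 18 and 34 (without av06) to 564 and 463 (without av08). The call was lost when av05, av06, av07, av09, av11 or av12 was left out alone, with adjusted p up to 0.148. Without av08 and av15 it was -1.13 (adjusted p = 0.00013), and Mylip was called as well (-0.60, adjusted p = 0.00826).

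Insig1 (0.36 ± 0.24, interval -0.11 to 0.82) and Stard4 (0.44 ± 0.28, interval -0.11 to 0.99) did not pass the test against no-Cys, and their intervals leave room for a difference. Abcg5 was at 262 to 283 CPM with BSO and 249 to 286 CPM on no-Cys, a log2 fold change of 0.01 ± 0.12 (interval -0.24 to 0.25). Srebf2 differed by -0.01 ± 0.14 (interval -0.29 to 0.28). Of the synthesis enzymes 1 was called higher, Ebp by 0.43 ± 0.10, and 0 lower (median 0.09). Gramd1c (-0.99 ± 0.19) and Soat2 (-0.50 ± 0.13) were lower in the uptake and transport list and Cry1 (0.75 ± 0.18) was higher among clock genes. The trafficking and LXR lists had no calls, but without av08 the LXR list had 4 higher. The lower calls of the uptake list became 0 without av06 or av09, 3 without av08 and 1 without any other single liver. The calls of the synthesis and clock lists were lost when any single liver but av08 was left out. Of hepatocyte markers 3 of 6, and of cholangiocyte markers 2 of 5, were called higher with BSO, and their part was not tested.

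**Figure D3:**
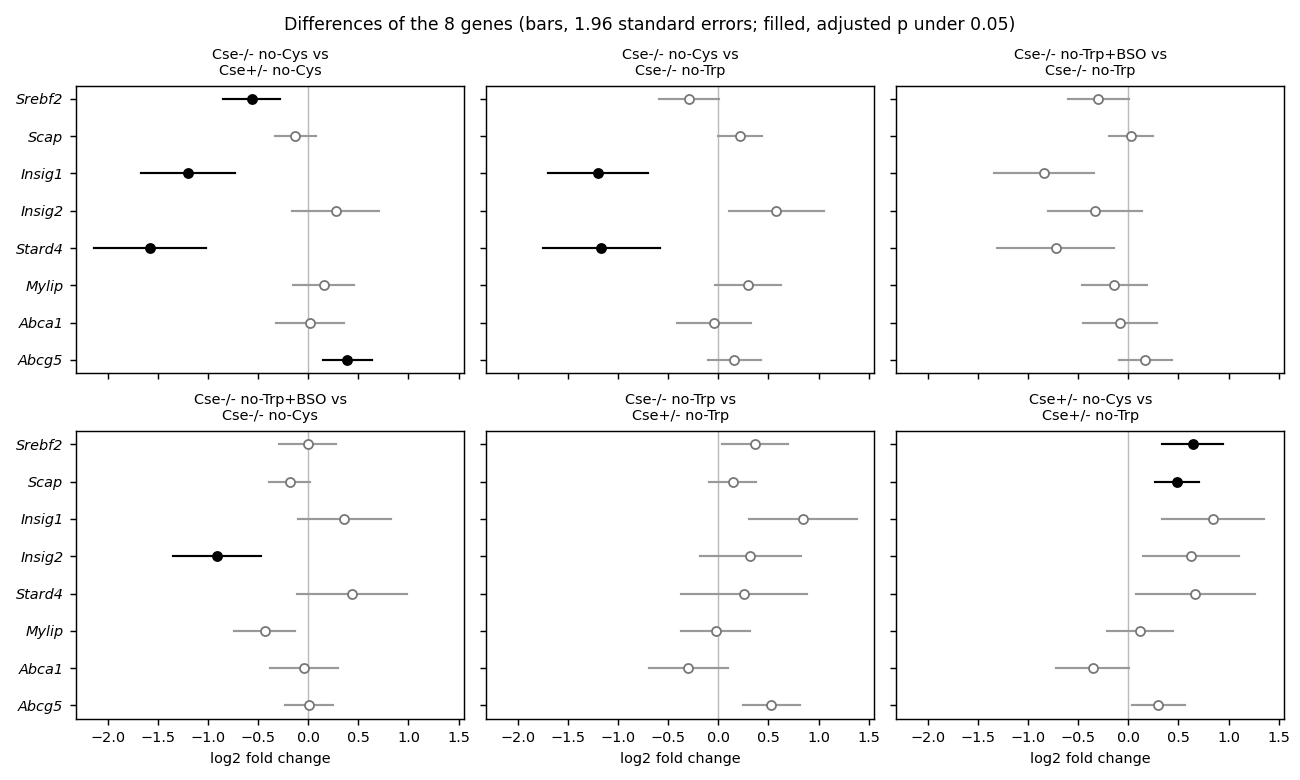
Log2 fold change of each of the 8 genes (points) with its 95% interval (bars) in 6 comparisons of groups; filled points had an adjusted p under 0.05. Insig1 and Stard4 were called lower on no-Cys against Cse+/- no-Cys (-1.20 and -1.58) and against Cse-/- no-Trp (-1.20 and -1.17), and Insig2 alone was called between no-Trp + BSO and no-Cys.

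Genotype was also compared on the no-Trp diet, which supplies cysteine. No member was called by edgeR, where 1.4% of genes were called higher and 1.24% lower, and 3 members had an unadjusted p under 0.05. The 206 higher and 183 lower calls over all genes moved by over 1.5 times without av15, av16, av19 or av20, to as few as 50 and 59 (without av15). Insig1 was at 85.8, 124 and 148 CPM in Cse+/- no-Trp livers, and its log2 fold change in Cse-/- livers was 0.84 ± 0.27 (adjusted p = 0.102). Abcg5 was at 168, 175 and 163 CPM in Cse+/- and 220, 325 and 186 CPM in Cse-/- livers, without overlap. Its log2 fold change of 0.53 ± 0.14 had an adjusted p of 0.0545. DESeq2 called Insig1 (adjusted p = 0.0395) and Abcg5 (adjusted p = 0.0152) higher. Without av08 and av15, edgeR called Insig1 (1.08, adjusted p = 0.0443), and Abcg5 was at 0.26 (adjusted p = 0.307). Abcg8 rose by 0.62 ± 0.16 (adjusted p = 0.0470), and 4 of 20 synthesis enzymes were called higher and 0 lower (median 0.62). The LXR list's call, that of Abcg8, was lost without av15, av17, av19 or av20, and the synthesis enzymes' 4 calls became 1 or 2 without any single liver but av14.

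Whether the genotype difference itself differed between no-Cys and no-Trp was tested as an interaction. It was called for Insig1 (-2.05 ± 0.36, adjusted p = 0.00379), Srebf2 (-0.93 ± 0.22, adjusted p = 0.0207) and Stard4 (-1.83 ± 0.43, adjusted p = 0.0194), all negative. So 3 of 8 members were called lower and 0 higher, where 2.69% and 1.67% of genes were. The 246 higher and 397 lower calls over all genes moved by over 1.5 times without av02, av05, av06, av07, av08 or av17, with 201 lower without av07 and 674 lower without av08. Abcg5 (-0.14 ± 0.19, interval -0.51 to 0.23) and Scap (-0.27 ± 0.16), Insig2 (-0.05 ± 0.34), Mylip (0.18 ± 0.23) and Abca1 (0.32 ± 0.27) did not pass. All 3 calls held without av08 and av15 together, at -2.45, -0.95 and -2.29 for Insig1, Srebf2 and Stard4. That of Srebf2 was lost without av07 or av20, with adjusted p up to 0.0549, and that of Stard4 without av16 or av17, with adjusted p up to 0.0548. No-Cys against no-Trp gave -1.20 for Insig1, -0.29 for Srebf2 and -1.17 for Stard4 in Cse-/- livers. In Cse+/- livers it gave 0.84, 0.64 and 0.67. Of these differences, that of Srebf2 was called in Cse+/- livers only, and those of Insig1 and Stard4 in Cse-/- livers only. All 20 synthesis enzymes had a called negative interaction (median -1.79), against 6 of 12 clock genes, 2 of 6 hepatocyte markers and 1 of 4 red cell markers, and 1 of 5 liver endothelial markers had a positive one. The part of these lists was not tested.

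Within Cse+/- mice, Srebf2 and Scap were higher on no-Cys than on no-Trp. Srebf2 was at 38.0, 34.8 and 27.2 CPM on no-Trp, below all 4 no-Cys livers, with a log2 fold change of 0.64 ± 0.16 (adjusted p = 0.0181). Scap was at 98.9, 100.464 and 85.0 CPM on no-Trp and at 121, 137, 138 and 136 CPM on no-Cys, with 0.49 ± 0.11 (adjusted p = 0.0129). These were the only members called in this comparison, 2 of 8 higher and 0 lower, where 4.63% and 3.41% of genes were. The 683 higher and 503 lower calls over all genes moved by over 1.5 times without av02, av03, av17, av19 or av20, with 332 and 322 without av20. Insig1 (0.84 ± 0.26) missed the threshold with an adjusted p of 0.0503, and a fit of these groups alone called 4 members, Insig1 and Insig2 included. Without av20 neither Srebf2 (adjusted p = 0.0917) nor Scap (adjusted p = 0.0642) was called, and without av02 Srebf2 was not (adjusted p = 0.0574). Of the synthesis enzymes 14 were higher and 0 lower (median 1.06), which became 9 without av17, and 5 clock genes were higher (3 without av19 or av20) and 2 lower (0 without av02, av04, av17 or av19, and 1 without av03). Of 5 liver endothelial markers 2 were called lower, with sums of 139.5 to 174 CPM on no-Cys and 142 to 170 CPM on no-Trp, and their part was not tested.

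Against the 2 control-diet livers, no member was called on no-Cys, where 0.989% of genes were called higher and 1.19% lower, or on no-Trp, where 0.00678% and 0.0407% were. On no-Cys the 146 higher and 176 lower calls over all genes moved by over 1.5 times without av02, av03, av21 or av22, to 3 and 7 without av22, a control-diet liver, and on no-Trp there were 0 to 3 higher and 1 to 6 lower when single livers were left out. At an unadjusted p under 0.05, Stard4 and Srebf2 were higher on no-Cys and Scap was lower on no-Trp, and DESeq2 called no member in either comparison. Stard4 was at 83.7 and 73.4 CPM on the control diet, below all 4 Cse+/- no-Cys livers (0.95 ± 0.36, adjusted p = 0.170). Srebf2 was at 43.5 and 35.7 CPM, also below them (0.39 ± 0.18, adjusted p = 0.279), and Insig1 was at 177 and 122 CPM. On no-Trp Scap had a log2 fold change of -0.29 ± 0.13 (adjusted p = 0.531). Of the synthesis enzymes, 1 of 20 was called higher and 0 lower on no-Cys (median 0.52, with 18 of 20 above 0), and this call was lost without av02, av21 or av22. On no-Trp edgeR called 0 and DESeq2 1 lower (median -0.44, with 19 of 20 below 0), and 8 had an unadjusted p under 0.05. Of 12 clock genes, 3 were higher and 2 lower on no-Cys than on the control diet, from -2.83 (Arntl) to 2.34 (Nr1d1), with 0 lower without av22, and 1 of 5 cholangiocyte markers was lower on no-Cys. Their part was not tested.

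Over all 6 groups, the mean of Srebf2 was highest in Cse+/- no-Cys (51.9 ± 5.21 CPM, SD, n = 4), then Cse-/- no-Trp (43.0 ± 8.34, n = 3), Cse+/- control (39.6 ± 5.49, n = 2), Cse-/- no-Cys (35.1 ± 7.09, n = 4), no-Trp + BSO (34.9 ± 2.95, n = 4) and Cse+/- no-Trp (33.3 ± 5.57, n = 3). The ranges of every pair of neighbours in that order overlapped. Insig1 had its highest means in Cse+/- no-Cys (214 ± 13.7) and Cse-/- no-Trp (214 ± 74.8) and its lowest in Cse-/- no-Cys (93.3 ± 30.2). Stard4 was highest in Cse+/- no-Cys (152 ± 31.3) and lowest in Cse-/- no-Cys (50.9 ± 21.7), with no-Trp + BSO next (69.1 ± 28.5). Abcg5 was at 272 ± 16.3 in Cse-/- no-Cys, 274 ± 10.9 in no-Trp + BSO and 244 ± 72.1 in Cse-/- no-Trp, above the Cse+/- means of 169 to 208. Abca1 and Mylip had group means between 124 and 162 CPM and between 12.8 and 17.3 CPM, with no call in any comparison of all 20 livers.

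**Figure D4:**
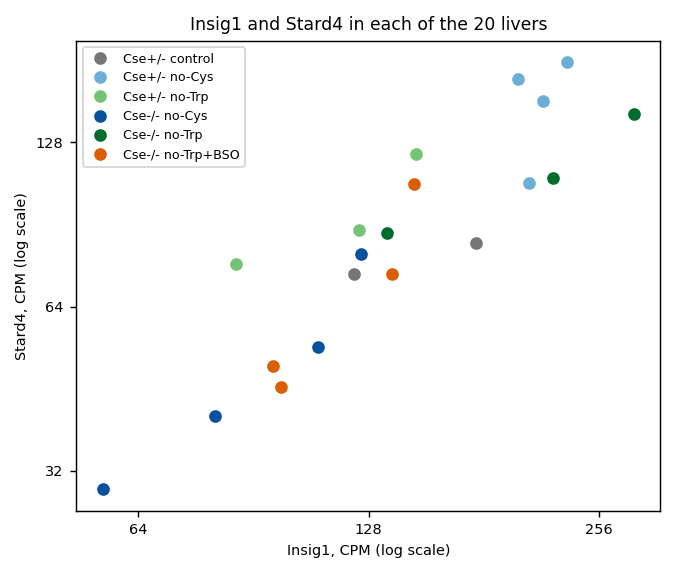
Stard4 against Insig1 in each of the 20 livers (points, coloured by group), in CPM on log scales. The livers lie along a diagonal from the Cse-/- no-Cys liver av05 (57.5 and 29.6 CPM) to Cse+/- no-Cys and Cse-/- no-Trp livers.

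Likeness of pattern was described by Pearson's r of log2 CPM over the 20 livers among 9436 genes, a description that holds group differences and shared libraries and carries no test. Insig1 and Stard4 were alike (r = 0.90). The genes most like Insig1 were Cyp51 (r = 0.92), Msmo1 (0.91) and Erg28 (0.90), and those most like Stard4 were Cyp51 (0.92), Cdc42 (0.91) and Insig1. Among the genes most like Srebf2 were Isoc1 (0.86) and Dock8 (0.86), and it had r = 0.66 with Insig1. Insig1 and Stard4 thus had synthesis enzymes or each other among their nearest genes.

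The remaining members had other neighbours. Insig2 had r = -0.25 with Insig1 and was most like Tmem56 (0.88), Haus2 (0.86) and Eif4g3 (0.85), and among the members it was most like Mylip (0.68). Abcg5 was most like Abcg8 (0.95), which it overlaps, then Gm43012 (0.90) and Casp6 (0.89). Scap was most like Selenoo (0.88), Lrp5 (0.85) and Frmd8 (0.84), Mylip like Klf3 (0.86), Rpl22l1 (0.78) and Abcc9 (0.75), and Abca1 like Ranbp9 (0.85), B3galt1 (0.82) and Slc25a30 (0.81). Abca1, which carries the seed matches of the miRNA within Srebf2, had r = 0.01 with Srebf2.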

How the data were processed

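Liver poly(A) RNA was sequenced as paired reads. The authors aligned reads with HISAT2 2.1.0 to GRCm38 and counted them per gene with HTSeq 0.11.0; the deposited table holds raw counts. Annotation release and strand setting are not given in the sources used here. Columns are named by mouse number and were assigned to groups, not to single sample labels, through the study's list of mice. Each group had as many columns as labelled samples. Of 21 columns, 1 was assigned to no group and was not used. No pair of livers in a group differed by as little as sampling noise (chi-square per gene 9.6 to 64.2). Counts were fitted with edgeR 4.0.16 (R 4.3.3; TMM, filterByExpr with minimum count 10 and total 15, quasi-likelihood F test, two-sided) with a mean for each of 6 groups over 20 livers, and Benjamini-Hochberg adjustment over 14759 genes at 0.05. SEs were derived from F. Scripts were tested on simulated data. The alternatives were DESeq2 1.42.0, RLE and upper-quartile factors, other filters, only the groups compared, a threshold of 0.01 and leaving livers out. P-values measure the spread between mice. The members and lists were chosen with earlier results of these data known. Named from lists were up to 4 called genes with the largest change in each of the first 4 comparisons, and for each member the 3 genes with the highest r (mean of at least 5 CPM, prior count 2); genes outside this rule (Lep, the less changed Lss and clock or LXR genes in later comparisons) were named after their values were seen. Some genes that this rule selects are not reported here. Columns of livers are called by their header names.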

Additional observations from a re-analysis of the deposited data

Results flagged for a closer look

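In Cse+/- no-Cys livers, Scap in av01 (121.034 CPM) lay apart from the other 3 livers, which were within 136 to 138 CPM. Of the 24 sets of 4 livers checked in this way, 1 stood out, and chance gives about 1 in 20. The genotype difference on no-Cys differed from that on no-Trp by -0.93 for Srebf2, -2.05 for Insig1 and -1.83 for Stard4 on the log2 scale, each by the test of the interaction itself.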

How the results depend on the processing

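No paired analysis was possible because the count columns carry mouse numbers, not the replicate numbers of the labels. Counts of members called moved in these cases, and the cause was not tested. At an adjusted p under 0.01, Cse-/- against Cse+/- on no-Cys had 0 higher (3 lower as before), Cse-/- no-Cys against no-Trp 1 lower, no-Trp + BSO against no-Cys 0 lower, Cse+/- no-Cys against no-Trp 0 higher and the interaction 1 lower. With only the groups compared, which leaves fewer livers to set the spread, no-Cys against no-Trp in Cse-/- had 0 lower, no-Trp + BSO against no-Cys 0 lower and Cse+/- no-Cys against no-Trp 4 higher. DESeq2 and the fit with no filter on low counts each gave 1 lower for BSO added to no-Trp and 2 higher for genotype on no-Trp, and no filter also gave 1 higher (Stard4) for no-Cys against control in Cse+/-. Leaving out av08 and av15, chosen after seeing the data, gave 2 higher for genotype on no-Cys, 3 higher for no-Cys against no-Trp in Cse-/-, 1 lower for BSO added to no-Trp, 2 lower for no-Trp + BSO against no-Cys and 1 higher for genotype on no-Trp. Leaving out single livers gave 0 to 1 higher for genotype on no-Cys, 0 to 2 higher and 1 to 2 lower for no-Cys against no-Trp in Cse-/-, 0 to 2 lower for no-Trp + BSO against no-Cys, 0 to 1 higher for genotype on no-Trp and 0 to 2 higher for Cse+/- no-Cys against no-Trp.

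Signs turned only for changes that were not called. Abca1 in Cse+/- no-Trp against control went to 0.000952 (RLE), 0.0082 (upper-quartile), 0.011 (no filter), 0.0044 (mean of at least 1 CPM), 0.011 (only these groups) and 0.0011 (DESeq2). In no-Trp + BSO against no-Cys, Abcg5 went to -0.000513 (RLE) and -0.0018 (DESeq2), and Srebf2 to 0.012 (no filter) and 0.11 (without av08 and av15). Without av08 and av15, Abca1 went to 0.021 in Cse-/- no-Cys against no-Trp, and the interactions of Insig2 and Abcg5 to 0.47 and 0.10. With single livers left out, the range for Abca1 was -0.25 to 0.30 (Cse+/- no-Trp against control), -0.10 to 0.12 (genotype on no-Cys), -0.14 to 0.031 (Cse-/- no-Cys against no-Trp) and -0.11 to 0.057 (no-Trp + BSO against no-Cys). For Abcg5 it was -0.0053 to 0.42 (Cse-/- no-Cys against no-Trp), -0.041 to 0.031 (no-Trp + BSO against no-Cys), -0.0040 to 0.42 (BSO added to no-Trp) and -0.30 to 0.12 (interaction). For Insig2 it was -0.044 to 0.26 (Cse+/- no-Cys against control) and -0.27 to 0.26 (interaction), for Mylip -0.022 to 0.31 (genotype on no-Cys) and -0.12 to 0.072 (genotype on no-Trp), for Scap -0.062 to 0.13 (BSO added to no-Trp) and for Srebf2 -0.12 to 0.12 (no-Trp + BSO against no-Cys). Of the members' log2 fold changes under single livers left out, 485 kept sign and side of the threshold, 22 lost and 6 gained a call, and 31 turned. Under the other settings 510 kept both, 10 lost and 19 gained a call, and 13 turned. By Spearman's rho, 1 of the 3 genes most like Scap, Insig1, Insig2 and Abcg5 was shared with Pearson's r. With 2 control livers, small differences from the control diet are not resolved.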
